A study of Bos taurus with 15 samples.

Results

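The genes described are the 4 casein genes, CSN1S1 (ENSBTAG00000007695), CSN1S2 (ENSBTAG00000005005), CSN2 (ENSBTAG00000002632) and CSN3 (ENSBTAG00000039787), chosen by their identifiers from the 24616 identifiers of the deposited file. Transcript levels were measured by RNA-seq of the 3′ end of transcripts in needle biopsies of the mammary gland of 4 non-pregnant Holstein cows. Dexamethasone (DEX), a glucocorticoid drug, was injected once into the muscle at 40 mg per cow, straight after the biopsy at time 0, and further biopsies followed 12, 24 and 72 h later. Cows 2, 3 and 4 had a library at all 4 time points and cow 1 had 3 libraries, at 0, 12 and 24 h, which gave 15 libraries in all. A single cow of the study had stopped ruminating by 24 h, later fell ill and was taken out. Cow 1, the only cow without a 72 h library, is presumed to be that animal, and the part of its condition in the values that include cow 1 was not tested. All cows were in the second lactation, between 40 and 64 days in milk and between 648 and 838 kg, and all received prophylactic ampicillin for 3 d across the biopsy period. There was no untreated cow, so the libraries at time 0 were the only reference and all comparisons with time 0 share them. Each time point came from a different gland of the udder, in the same order in all cows, so the time since DEX and the gland sampled cannot be told apart. The 12 h biopsy also fell in the morning and the others in the evening.

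Caseins are the main proteins of cow's milk and are made by the secretory epithelium of the lactating gland. The calcium-sensitive members, alpha-s1-casein (CSN1S1), alpha-s2-casein (CSN1S2) and beta-casein (CSN2), carry clusters of phosphorylated serines that bind calcium phosphate, and they are packed into micelles. Kappa-casein (CSN3) is glycosylated and sits at the micelle surface, where it keeps the particles in suspension until chymosin cuts it. Transcription of the casein genes in cultured mammary epithelium needs prolactin, acting through STAT5, together with glucocorticoid acting through its receptor. The annotation of assembly ARS-UCD2.0 places the 4 genes on a single chromosome in the order CSN1S1, CSN2, CSN1S2 and CSN3, with HSTN and STATH between CSN2 and CSN1S2, and PRR27 and ODAM among the genes between CSN1S2 and CSN3.

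Levels are given in 2 units. A normalized count is the authors' value, a read count divided by the library total and multiplied by a scaling factor for the library, and a share is the percent of all reads on genes in that library, computed from reads recovered from the normalized counts. Libraries held between 1804120 and 6228132 reads on genes, and each casein had between 84422 and 1726421 reads. The widest 95% Wilson interval of a share was 0.0657 percentage points on either side, so counting error was small beside the differences between cows. Reads of the 3′ end count transcripts without regard to their length, so shares are compared between genes without dividing by length. They still depend on how well each annotated 3′ end holds the reads of its gene.

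Casein transcripts made up most of every library. The 4 genes together took between 60.5% and 68.9% of the reads, with a median of 64.5% over the 15 libraries. They filled the 4 highest ranks in 13 libraries, and in the other 2, cow 1 and cow 4 at time 0, CSN2 was in rank 5. The caseins, which mark secretory epithelium, were thus at high levels in each library of this mammary tissue. In bulk tissue, fewer secretory cells and less RNA per cell cannot be told apart. CSN1S2 was the most abundant gene in 14 libraries, with a median share of 26.2%. CSN1S1 was second in 14 libraries, with a median of 23.5%, and came first in cow 2 at 24 h. CSN3 had a median of 9.81% and CSN2 of 5.08%. The next most abundant gene took between 1.29% and 5.67% of a library.

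**Figure D1:**
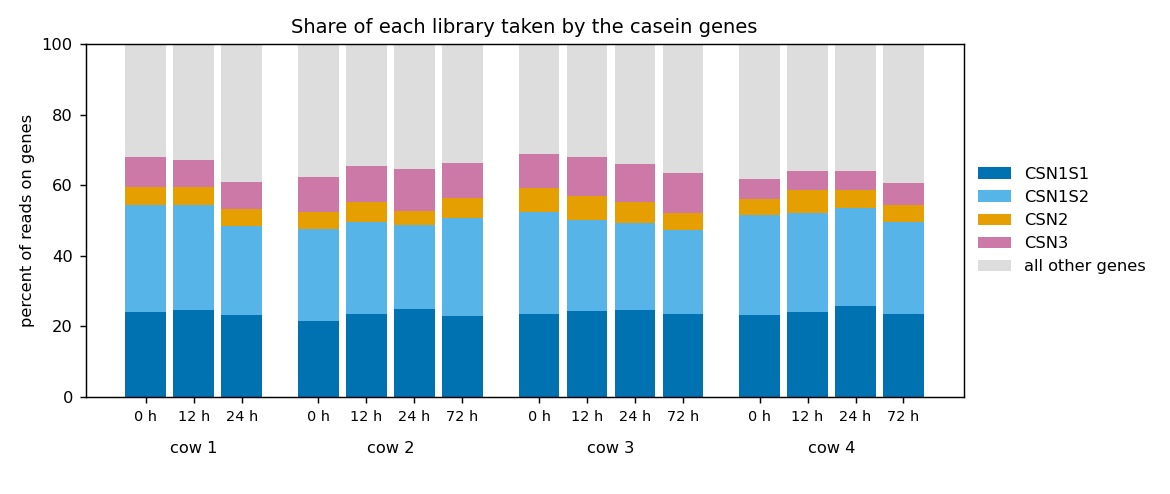
Stacked bars give the percent of reads on genes taken by each casein and by all other genes in each of the 15 libraries, grouped by cow and ordered by hours after DEX. The caseins together lie between 60.5% and 68.9% of every library, and CSN3 is thinnest in cow 4.

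The summed casein share did not pass the test over time. In cows 2 to 4 it was 64.4% ± 3.99 (SD, n = 3 cows) at time 0, 65.7% ± 2.04 at 12 h, 64.8% ± 0.912 at 24 h and, at 72 h, 63.4% ± 2.88. An exact test that permuted the 4 time labels within each cow in all 13824 ways gave an adjusted p of 0.615 over a family of 9 shares. The cows differed in direction, since from time 0 to 24 h the summed share went from 62.4% to 64.5% in cow 2, from 68.9% to 65.9% in cow 3 and from 61.7% to 64.1% in cow 4. Cow 1 went from 68.0% to 60.9%, the largest difference of the 4 cows at 24 h.

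The level of no casein passed the threshold against time 0 in the fit across all genes. Differential expression was tested with limma on log2(normalized count + 0.5) in the 12 libraries of cows 2 to 4, with Benjamini-Hochberg adjustment over 13525 genes. At 12 h 0 of the 4 caseins had an adjusted p under 0.05 in limma, where 3.88% of all genes did. At 24 h it was 0 of 4 against 2.31% of all genes, and at 72 h 0 of 4 against 0%. For all genes at 72 h limma found 931 of 13525 at an unadjusted p under 0.05. By adjusted p edgeR called 55 of 13525, DESeq2 22 of the 677 it gave an adjusted p, and limma-voom 0 of 9694. In this limma fit no casein had an unadjusted p under 0.05. The standard errors of this fit were 0.86 for CSN1S1, 0.90 for CSN1S2, 0.49 for CSN2 and 0.64 for CSN3. It thus had little power for the caseins, and 0 of 4 does not show that their levels were unchanged. After adjustment edgeR, DESeq2 and limma-voom on the recovered reads also called no casein against time 0. Of all genes at 12 h they called 907 of 13525, 592 of 7232 and 530 of 9694, in that order. At 24 h they called 630 of 13525, 418 of 5921 and 349 of 9694. The median log2 change of the 4 caseins at 12, 24 and 72 h was 0.047, 0.043 and -0.25. That of all genes tested was 0.00054 at 12 h and 0 at 24 h. Over the 2922 genes whose normalized counts averaged 10 or more, the median was 0.075, 0.067 and 0.022.

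The intervals of this fit were wide for the caseins. limma sets the variance of a gene partly from a trend over all genes of like abundance, and very few genes are as abundant as these. For CSN1S1 the residual SD over the 12 libraries was 0.117 on the log2 scale, smaller than in all but 2.19% of the 2922 genes, while the SD set by the trend was 1.46. The 95% interval of its change at 24 h ran from -1.64 to 2.00, around an estimate of 0.18 with a standard error of 0.86. With a constant prior variance the standard error was 0.168 and the interval -0.19 to 0.55, and with limma-voom it was 0.101 and -0.0032 to 0.42. The trend SD also exceeded the residual SD for CSN1S2, with a residual SD of 0.155 against 1.52 from the trend, for CSN2, with 0.24 against 0.803, and for CSN3, with 0.534 against 0.962.

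**Figure D2:**
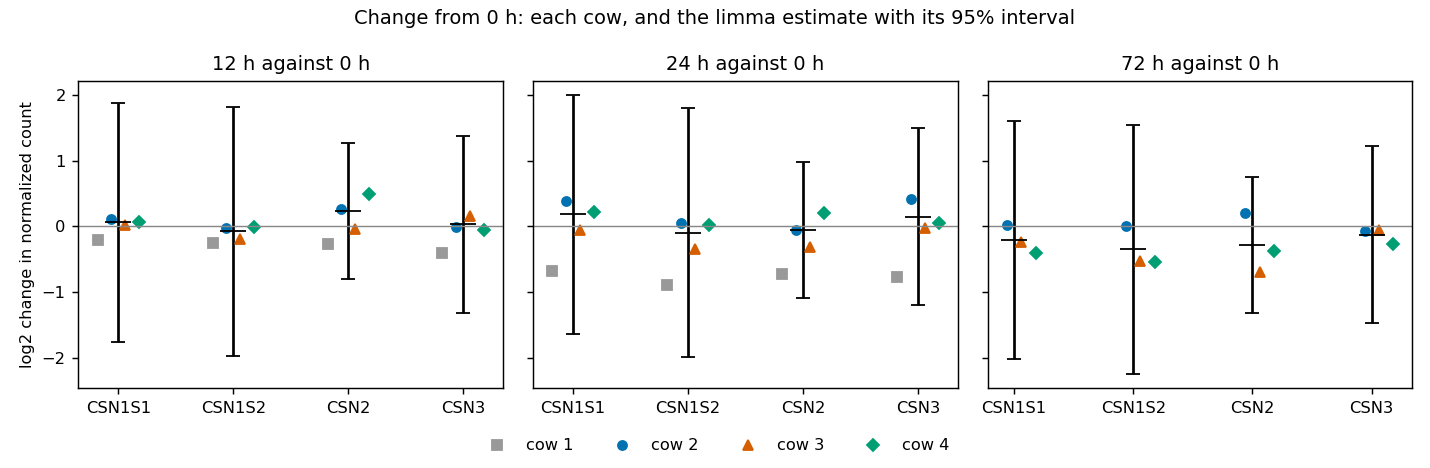
Log2 change in normalized count from time 0 at 12, 24 and 72 h for each casein, with a point for each cow and, in black, the limma estimate for cows 2 to 4 with its 95% interval. The intervals span 0 for every casein, and cow 1 lies lowest for every casein at 12 and 24 h.

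The CSN1S1 transcript, which encodes alpha-s1-casein, had 217036 normalized counts at time 0 in cow 2, 245105 in cow 3 and 242893 in cow 4. At 12 h the values were 234297, 248688 and 253181, and at 24 h 284464, 235235 and 280965. At 72 h they were 220002, 206649 and 183971. Every cow of the 3 was higher at 12 h than at time 0, cow 3 alone was lower at 24 h, and the groups at 0, 12 and 24 h overlapped. Cow 1 was highest of all at time 0, with 302421, and went to 262318 at 12 h and 187771 at 24 h. The means of cows 2 to 4 were in the order 24 h, 12 h, 0 h and 72 h. No neighbours in this order passed the threshold in limma (adjusted p of 1 for each neighbouring pair). With a standard error of 0.86 that test had little power to tell them apart.

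As a share of the library, CSN1S1 changed over time in cows 2 to 4. It took 21.5% of the library of cow 2 at time 0, 23.5% at 12 h, 24.9% at 24 h and 22.9% at 72 h. In cow 3 the shares were 23.48%, 24.4%, 24.6% and 23.49%, and in cow 4 they were 23.3%, 24.1%, 25.9% and 23.5%. The order was the same in all 3 cows, lowest at time 0, then 72 h, then 12 h, and highest at 24 h, although in cow 3 the step from time 0 to 72 h, 0.0135 percentage points, lay within the counting intervals. The exact permutation test within cows gave p = 0.00174, the smallest it can give, and an adjusted p of 0.0156. The mean gain was 2.39 percentage points ± 1.15 at 24 h and 1.25 ± 0.666 at 12 h (SD, n = 3 cows). In cow 1 the share was 24.1% before DEX, 24.6% at 12 h and, unlike in the other cows, lower at 24 h (23.2%). Adding cow 1 and leaving out 72 h gave an adjusted p of 0.215 in the exact permutation test. Leaving out cow 2, 3 or 4 gave adjusted p of 0.0938, 0.375 and 0.375, each with the smallest unadjusted p that an exact test of 2 cows can give, 0.0417. A share also moves when the other genes of the library move, and swapping single pairs of time points in 3 cows cannot give a p below 0.25.

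The CSN1S2 transcript, for alpha-s2-casein, had its highest mean library share at time 0 and its lowest at 24 h. Its level at time 0 was 264936 normalized counts in cow 2, 301481 in cow 3 and 295071 in cow 4. At 24 h it was 272794, 236191 and 299790, lower in cow 3 and slightly higher in cows 2 and 4. The log2 change in limma was -0.079 at 12 h, -0.10 at 24 h (0.033 without cow 3) and -0.35 at 72 h. In cow 1 the level went from 380285 at time 0 to 317735 at 12 h and 203582 at 24 h.

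As a share, CSN1S2 was lower than at time 0 in 4 of 4 cows at both 12 and 24 h. In cow 2 it was 26.2% at time 0 and 23.9% at 24 h, in cow 3 28.9% and 24.7%, in cow 4 28.3% and 27.6%, and in cow 1 30.3% and 25.2%. In cows 2 to 4 the exact permutation test over the 4 time points gave an adjusted p of 0.56. With cow 1 added and 72 h left out, the exact permutation p was 0.00463, the smallest possible with 4 cows, and the adjusted p 0.0139. Cows 2 to 4 alone were not tested over 0, 12 and 24 h. The parts of cow 1 and of the 72 h values in this difference were thus not tested. At 72 h the share stood above time 0 in cow 2 (27.7%) and below it in cow 3 (23.8%) and cow 4 (26.0%).

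The make-up of the casein reads does not depend on how libraries are scaled to each other. As shares of casein reads, the alpha-s caseins differed in direction at 24 h in each of the 4 cows. Together they fill most of the casein reads, so a higher share of one tends to go with a lower share of the other. Their tests are thus not independent. In normalized counts both went the same way from time 0 to 24 h in each cow. The log2 changes of CSN1S1 and CSN1S2 were -0.69 and -0.90 in cow 1, and 0.39 and 0.042 in cow 2. They were -0.059 and -0.35 in cow 3, and 0.21 and 0.023 in cow 4. CSN1S1 made up 35.4% ± 1.99 of casein reads at time 0 (SD, n = 3 cows), then 36.5% ± 1.05, 38.8% ± 1.47 and 36.8% ± 2.20 at the later times. CSN1S2 made up 43.2% ± 2.19, 40.5% ± 2.95, 39.2% ± 3.33 and 40.8% ± 2.93. At 24 h CSN1S1 was higher by between 2.66 and 4.16 percentage points, and CSN1S2 lower, in 4 of 4 cows, cow 1 included. In cows 2 to 4 the exact permutation test gave p = 0.026 for CSN1S1 and 0.0451 for CSN1S2, with adjusted p of 0.117 and 0.135, so neither passed after correction. With cow 1 added and 72 h left out, the exact permutation test gave p = 0.00463 for both, the smallest possible. The adjusted p of this test was 0.0139 for each.

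The ratio of CSN1S1 to CSN1S2 reads was nearly the same in all cows at time 0. It was 0.795 in cow 1, 0.819 in cow 2, 0.813 in cow 3 and 0.823 in cow 4. At 12 h it was 0.826, 0.903, 0.947 and 0.864, and at 24 h 0.922, 1.04, 0.996 and 0.937. Every value at 12 h and at 24 h was above every value at time 0, although cow 1 at 12 h was so by a small margin. The mean log2 difference from time 0 was 0.12 ± 0.076 at 12 h and 0.26 ± 0.074 at 24 h (SD, n = 4 cows). The exact permutation test within cows, applied to the ratio after these values had been seen, gave p = 0.026 over 4 time points in 3 cows and p = 0.00463 over 3 time points in 4 cows. At 72 h cow 2 was back at 0.825, while cow 3 stood at 0.989 and cow 4 at 0.905.

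**Figure D3:**
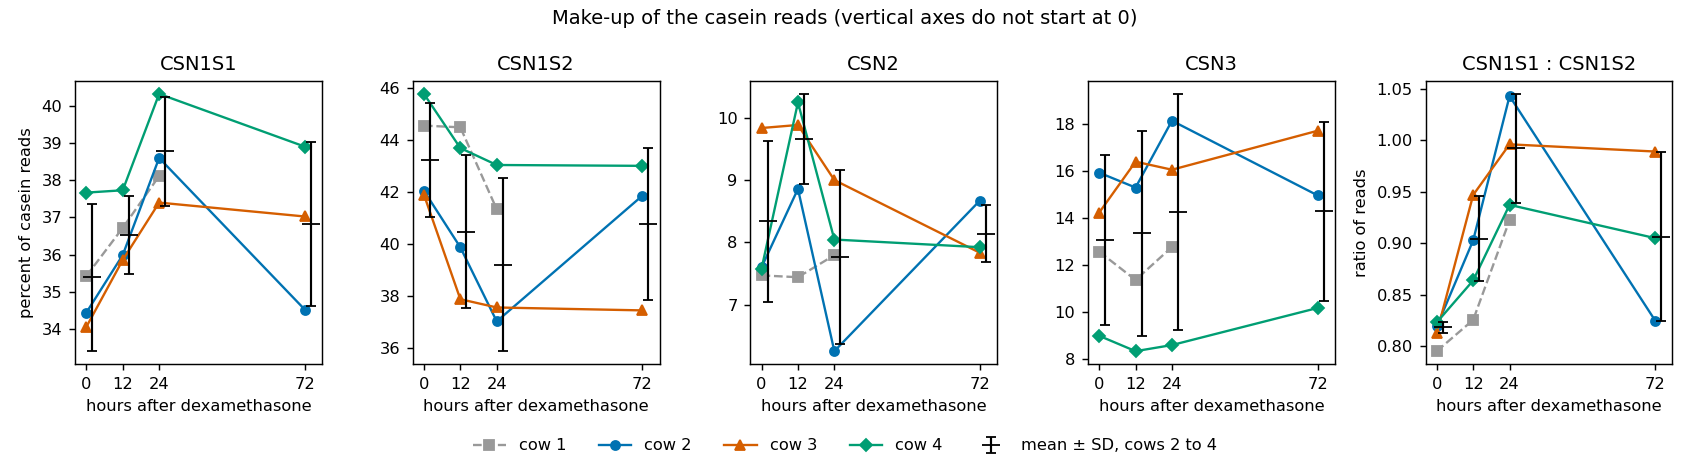
Percent of casein reads taken by each casein, and the ratio of CSN1S1 to CSN1S2 reads, against hours after DEX, with a line for each cow and the mean ± SD of cows 2 to 4 in black. The ratio lies between 0.795 and 0.823 in the 4 cows at time 0 and between 0.922 and 1.04 at 24 h.

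CSN2, for beta-casein, was the least abundant of the 4 in 14 of 15 libraries. This rank depends on the names listed with the identifiers and on the annotated 3′ ends, neither of which was checked. CSN2 had 47906 normalized counts at time 0 in cow 2, 70810 in cow 3 and 48869 in cow 4. At 12 h it had 57677, 68571 and 68771. Cows 2 and 4 were thus higher at 12 h and cow 3, which began highest, was not. At 24 h the values were 46079, 56617 and 56061, and at 72 h 55273, 43716 and 37462. In cow 1 the level was 63778 at time 0, 53158 at 12 h and 38403 at 24 h. The log2 change in limma was 0.24 at 12 h (standard error 0.49, adjusted p = 0.894), -0.060 at 24 h (0.071 without cow 3) and -0.29 at 72 h. Leaving out a cow moved it between 0.11 and 0.38 at 12 h and between -0.54 and -0.089 at 72 h.

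The pair of time points farthest apart for CSN2 was 12 h and 72 h. The difference was -0.53 on the log2 scale, lower at 72 h in 3 of 3 cows (adjusted p = 0.72 in limma, where 3.62% of all genes were called). It passed the threshold in 2 of 17 other settings, with an adjusted p of 0.00261 in edgeR and 0.0463 in limma-voom. For this pair edgeR called 928 of 13525 genes and limma-voom 634 of 9694. The corresponding pair for CSN1S1 was 24 h and 72 h, with a difference of -0.39, lower at 72 h in 3 of 3 cows (adjusted p = 0.9 in limma, where 3.56% were called). It passed in the same 2 tools, at 0.0210 in edgeR and 0.0144 in limma-voom. There edgeR called 988 of 13525 genes and limma-voom 647 of 9694. With libraries scaled to their total these differences were -0.30 for CSN2 and -0.11 for CSN1S1, and with the total without caseins -0.39 and -0.16, none past the threshold in limma. As a share of casein reads CSN2 was between 7.58% and 9.84% at time 0 in cows 2 to 4, between 8.86% and 10.2% at 12 h, between 6.25% and 9.00% at 24 h and between 7.83% and 8.67% at 72 h (adjusted p = 0.522 in the exact permutation test). From 12 h to 24 h the CSN2 level was lower in 4 of 4 cows, a difference of -0.30 on the log2 scale in cows 2 to 4 with an adjusted p of 0.879 in limma, where 0.702% of genes were called.

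**Figure D4:**
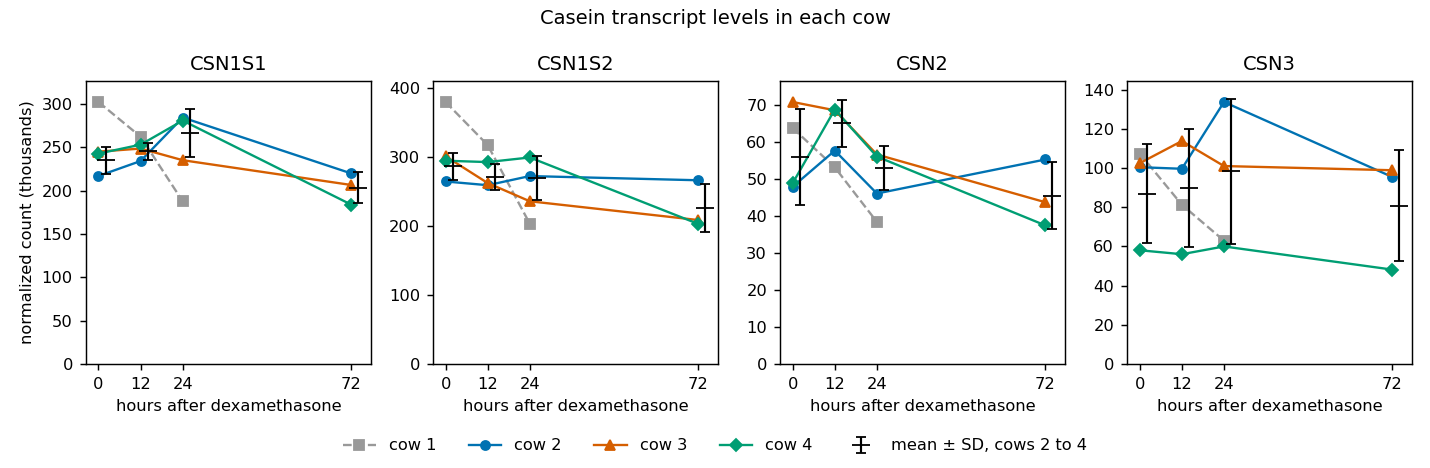
Normalized counts of each casein (axis divided as labelled) against hours after DEX, with a line for each cow (cow 1 dashed) and the mean ± SD of cows 2 to 4 in black. Cow 1 goes down at each step for all 4 caseins, and cow 4 holds the lowest CSN3 level at every time point.

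CSN3, for kappa-casein, was lower in cow 4 than in cows 2 and 3 at every time point. Cow 4 had 58024 normalized counts at time 0, 56008 at 12 h, 59965 at 24 h and 48143 at 72 h. Cow 2 had 100388, 99580, 133637 and 95371, and cow 3 had 102430, 113719, 100972 and 98832. Cow 4 was thus at 57.2%, 52.5%, 51.1% and 49.6% of the mean of cows 2 and 3, and the lowest of all cows at each time point. Cow 1 had 107344, 81237 and 62914 at 0, 12 and 24 h, near cow 4 at 24 h. At time 0 the other 3 cows lay between 100388 and 107344, so cow 4 alone stood apart. Of the variation of log2 CSN3 among the 12 libraries of cows 2 to 4, 90.8% lay between cows and 4.68% between time points. Cow 1 was not among these libraries, and its level at 24 h was 0.586 of that at time 0.

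For the normalized counts of the other caseins more of the variation lay between time points than between cows, as a description. Between cows lay 0.501% of the variation of log2 CSN1S1, 6.61% for CSN1S2 and 11.2% for CSN2, and between time points 69.1%, 52.3% and 48.1%. As shares of casein reads this did not hold for CSN1S1, with 45.1% between cows and 42.3% between time points, or for CSN1S2, with 60.7% and 27.8%. The log2 change of CSN3 in limma was 0.029 at 12 h (-0.031 without cow 3), 0.15 at 24 h (0.013 to 0.23 with a cow left out) and -0.13 at 72 h, with a standard error of 0.64. With cow as a fixed term the standard error was 0.446, and the lowest adjusted p against time 0 in limma was 0.976. From time 0 to 24 h the library share of CSN3 differed by 1.76 percentage points in cow 2, 0.762 in cow 3, -0.0369 in cow 4 and -0.771 in cow 1.

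At 72 h all 4 caseins had lower mean normalized counts than at time 0, and the summed level was lower in cows 3 and 4 and not in cow 2. The summed casein level was 637336 in cow 2 at 72 h against 630266 at time 0, 558156 against 719826 in cow 3, and 472876 against 644857 in cow 4. The total of all normalized counts was also lowest at 72 h in each of these cows, down to 781910 in cow 4, where it was 1044342 at time 0. With libraries scaled to their total instead, the median log2 change of the 2922 genes at 72 h moved from 0.022 to 0.26, and the changes of CSN1S1 and CSN3 turned to 0.036 and 0.11. Relative to that median the difference was -0.23 for CSN1S1, -0.37 for CSN1S2, -0.31 for CSN2 and -0.15 for CSN3, a difference from which a scaling factor per library cancels by construction. Quantile normalization sets a gene to the value of its rank. CSN1S2, CSN1S1 and CSN3 held ranks 1, 2 and 3 at both times in each of cows 2 to 4. Their difference from the median was thus fixed in advance, within 0.00045 of 0. That of CSN2, 0.27, came from cow 4, where CSN2 went from rank 5 at time 0 to rank 4. In limma-voom the unadjusted interval of CSN1S2 was -0.60 to -0.11 (adjusted p = 0.761). None passed in any of 17 other settings, where the lowest adjusted p was 0.202, for CSN1S2.

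**Figure D5:**
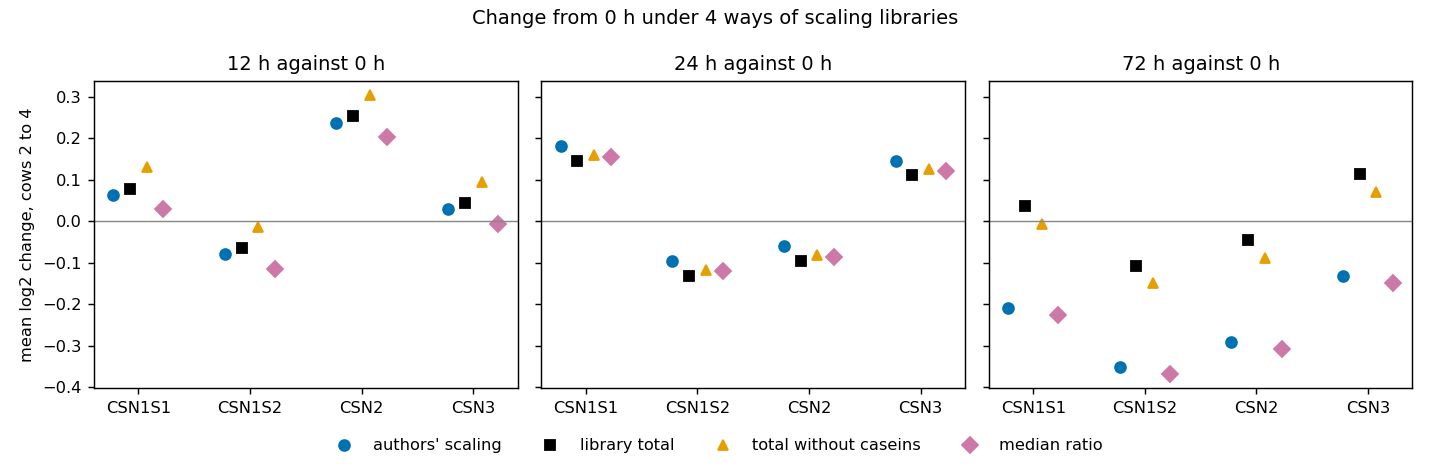
Mean log2 change from time 0 in cows 2 to 4 at 12, 24 and 72 h for each casein, with libraries scaled in 4 ways. The scalings lie close together at 24 h, while at 72 h the library total puts CSN1S1 at 0.036 and CSN3 at 0.11 and the authors' scaling puts them at -0.21 and -0.13.

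The correlations between caseins across libraries were higher on the normalized scale than as shares. Over the 15 libraries the log2 levels of CSN1S1 and CSN1S2 had a Pearson correlation of 0.872, the highest of 2921 genes for each of them, and CSN1S2 and CSN2 one of 0.683. With the reads of each library scaled to their total, the first became 0.0346 and the second 0.256. All genes of a library share its scaling factor, and 2 genes that fill much of a library constrain each other's shares, so both sets are descriptions. CSN3 had correlations of 0.207 to 0.361 with the other caseins on the normalized scale. As shares its correlation was -0.476 with CSN1S2, -0.187 with CSN1S1 and 0.0716 with CSN2. Among 2918 other genes, ENSBTAG00000015980 (0.841) and ENSBTAG00000015336 (0.799) had the highest correlations with the summed casein level. ENSBTAG00000005574 (-0.811) and ENSBTAG00000007953 (-0.785) had the most negative. The mean normalized counts of these genes were 5733, 14.8, 27.1 and 12.0, in that order, and genes needed a mean of at least 10 to be compared. ENSBTAG00000015980 had its lowest values, 2001 in cow 4 at 72 h and 2269 in cow 1 at 24 h, in the libraries with the lowest casein sums.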

How the data were processed

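RNA from 15 biopsies (3′ tag libraries, QuantSeq FWD) was sequenced by the authors, who trimmed the reads, aligned them with STAR (version 2.6.0c) to the UMD3.1 genome and counted them per gene. The deposited values are normalized counts, a signal equal to read counts over the library total times a scaling factor for each library. Dividing each by the value of 1 read gave whole reads (tolerance 0.01) for 100% of values in every library.

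Samples were grouped by the time and cow in their titles. The main test was limma (version 3.58.1, R 4.3.3; lmFit, duplicateCorrelation by cow, eBayes with trend) on log2(normalized count + 0.5) of cows 2 to 4, calling genes at an adjusted p (Benjamini-Hochberg) under 0.05. Fold changes are on that scale. Shares were tested with an exact two-sided permutation of time labels within cows, adjusted over 9 shares. Libraries of a cow come from the same animal, so cow numbers pair the samples. Their deviations from time point means correlated in 18 of 18 pairs (lowest 0.209). The single within-cow correlation that limma estimated over all genes was 0.0179, so the main fit made little use of the pairing. The alternative with cow as a fixed term takes the differences between cows out of the comparisons. The study itself used limma-voom on filtered raw counts, which here is an alternative. The others included edgeR (4.0.16) and DESeq2 (1.42.0) on recovered reads.

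The members, lists and tests were chosen with earlier results of these data known. Besides the caseins, genes to name were set as the 2 genes with the highest and the 2 with the lowest (most negative) correlation with the summed casein level. Casein names are those listed with the identifiers; 0 identifiers matched the symbol table, so gene lists by symbol, markers of other cell types included, were not analysed here, and no sequences are shown. Intervals of shares reflect read counting alone, and PCR copies of a molecule were counted separately.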

Additional observations from a re-analysis of the deposited data

Results flagged for a closer look

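Casein values of the 4 cows were examined in 39 sets (1 gene, measure and time each) for a cow that stood apart by Dixon's test. There were 2 such sets, and about 1.95 would be flagged by chance. CSN3 at time 0 was 58024 normalized counts in cow 4, against 100388 to 107344 in the others, a gap of 0.859 of the whole range. CSN2 at time 0 was 9.84% of casein reads in cow 3, against 7.47% to 7.60% in the others, a gap of 0.945 of the range.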

How the results depend on the processing

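Of the log2 changes of the 4 caseins between all pairs of time points, 382 values under alternatives did not reverse and kept their side of the threshold. Another 26 reversed and 4 passed the threshold. The 382 include changes of 0 under quantile normalization, which have no direction. They also include the exact permutation tests of log2 levels, which carry the main change and could not reverse. Many of the alternatives were limma fits that kept the trend over all genes, with little power for the caseins. For CSN1S1 at 24 h against time 0, the standard error was 0.636 with libraries scaled to their total and 0.101 in limma-voom. The count of 382 is thus no measure of how firm the results are. Of the shares, 47 kept their side. The alternatives were set with earlier results known, and the exact permutation tests of log2 levels (adjusted p of 0.16 for CSN1S1 and 0.194 for the others) and of the alpha-s ratio were added after seeing the data. Values passing only elsewhere were the 12 h to 72 h difference of CSN2 (-0.51 in edgeR, -0.53 in limma-voom) and the 24 h to 72 h difference of CSN1S1 (-0.39 in edgeR, -0.42 in limma-voom). The replicate block changed no casein call in limma, with cow as a fixed term or with no block; without the replicate block the CSN1S1 library share gave an adjusted p of 0.0316 in a permutation test. The 26 reversals were all of values past no threshold. With all 15 libraries CSN1S1 was -0.0035 at 12 h, -0.037 at 24 h and -0.033 from 12 h to 24 h, and CSN3 was -0.078, -0.083 and -0.0043. Scaled to the library total, CSN1S1 was 0.036 and CSN3 0.11 at 72 h, and against 12 h CSN3 was 0.069; against 24 h CSN2, CSN1S2 and CSN3 were 0.050, 0.024 and 0.0021. With totals without caseins CSN3 was 0.072 at 72 h, and with median-ratio scaling -0.0057 at 12 h. Quantile normalization, which sets a gene to the value of its rank, gave CSN3 -0.23 at 12 h and 0.23 from 12 h to 72 h, CSN2 0.27 at 24 and 72 h, and CSN1S2 0.053 from 24 h to 72 h. DESeq2 gave CSN3 -0.0015 at 12 h, and limma-voom CSN1S2 0.019 from 12 h to 24 h. Without cow 2 CSN3 was -0.037 from 12 h to 24 h. Without cow 3 CSN3 was -0.031 at 12 h, CSN2 0.071 and CSN1S2 0.033 at 24 h, and CSN1S2 0.052 from 12 h to 24 h. With a cow left out, CSN3 ranged from -0.031 to 0.070 at 12 h, CSN2 from -0.19 to 0.071 and CSN1S2 from -0.16 to 0.033 at 24 h, CSN3 from -0.037 to 0.26 and CSN1S2 from -0.060 to 0.052 between 12 h and 24 h. With cow 1 added and 72 h left out, the adjusted p of the exact permutation test was 0.215 for the CSN1S1 library share. It was 0.0139 for the CSN1S2 share of the library and the CSN1S1 and CSN1S2 shares of casein reads. With a cow left out, the adjusted p of the CSN1S1 share ranged from 0.0938 to 0.375; with 2 cows the unadjusted p was 0.0417, the smallest the exact test can give. Counting error was small for these genes, and with 2 or 3 cows the exact tests could give few distinct p-values. The cause of the reversals was not tested.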
